A study of Homo sapiens with 6 samples.

Results

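The genes of tight and adherens junctions described here were measured in HepG2, a human line established from a liver tumour. They are the 10 rows of a deposited table of 60605 genes whose symbols are CLDN1, CLDN2, CLDN4, CLDN6, CLDN14, OCLN, TJP1, CDH1, CDH2 and EPCAM. Lentivirus delivered the hairpins: 3 libraries came from cells given sh-control and 3 from cells given sh-circFTO, which targets a circular RNA of the FTO gene. All 6 libraries are labelled WT in genotype, and all the cells were grown in serum-containing medium. Everything rests on this 1 cell line, and separate cultures within a group are not stated in the labels. P-values therefore measure the spread between these libraries, which may be technical.

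Tight junctions seal the space between neighbouring epithelial cells. Claudins and occludin form the strands in the membrane, and the set of claudins that a cell makes decides which ions pass between cells. ZO-1, the product of TJP1, ties the strands to actin inside the cell. Adherens junctions lie next to them and are held by classical cadherins, which bind catenins on the inner side. In the liver, tight junctions close off the bile canaliculus, and hepatocytes carry both E-cadherin (CDH1) and N-cadherin (CDH2).

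The libraries held 14932270 to 16178079 counts in sh-control and 13361333 to 15809084 in sh-circFTO. The FTO gene itself was counted 2515 times in the sh-control libraries and 2643 times in the sh-circFTO libraries, with a log2 fold change of -0.01 (edgeR adjusted p = 0.937), but gene-level counts do not measure the circular RNA. All 11 hepatocyte and HepG2 markers were detected well enough to be tested, ALB and AFP among them, and 8 were lower and 3 higher in sh-circFTO. Among the labels, the cell type entry reads epithelial and the growth notes read mesenchymal. The epithelial keratins KRT8 and KRT18 stood at mean levels of 196 and 221 TMM-scaled FPKM in sh-control, while VIM, the mesenchymal filament vimentin, was counted 6 times in sh-control and 23 times in sh-circFTO. VIM is 1 of 10 fibroblast and mesenchymal markers and does not stand for them all. Their summed level was 75.8 to 84.5 TMM-scaled CPM in sh-control and 73.9 to 80.5 in sh-circFTO, and ACTA2 alone was tested.

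Levels are given as TMM-scaled FPKM, that is each count over the exonic length of its gene and over the TMM-scaled library size from edgeR, so that both genes and libraries can be set side by side. A gene was tested where 3 or more libraries had a deposited FPKM of 1 or more, and a gene was called at an adjusted p under 0.05. Of the 10 junction genes 9 passed that filter. CLDN2 reached it in 2 of the 3 sh-control libraries (deposited FPKM 1.88, 1.12 and 0.94) and in all 3 of sh-circFTO. The other 8 reached it in all 6 libraries. Below, a gene is said to reach the filter in one group alone where no library of the other group had a deposited FPKM of 1 or more. Of these 9, 5 were called higher (CLDN6, CLDN4, CDH1, CLDN2 and TJP1), 3 lower (CLDN1, EPCAM and CDH2) and 1 was not called (OCLN). Over all 12865 tested genes 69.7% were called, 34.9% higher and 34.8% lower, so a called gene was the usual case. The 3 libraries of one group lay on one side of the other 3 for all 9 genes, as for 71.5% of all tested genes. The median size of the log2 fold change, without its sign, was 0.56 over the 9 genes and 0.40 over all tested genes. CLDN6 alone changed by at least 2-fold.

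**Figure D1:**
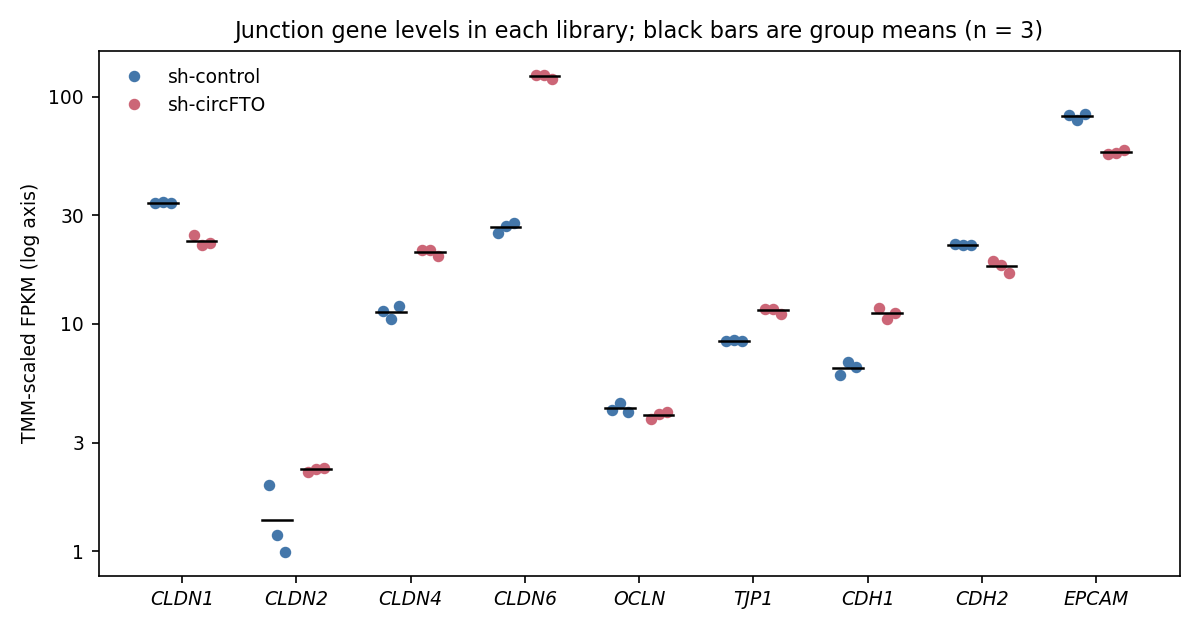
Level of each tested junction gene in each library, in TMM-scaled FPKM on a log axis; points are libraries (blue sh-control, red sh-circFTO) and black bars are group means of 3. CLDN6 moved from a mean of 26.6 to 123, past EPCAM, while CLDN1, CDH2 and EPCAM moved down.

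CLDN6 encodes a claudin of embryonic and fetal epithelia that is made again in some tumours. It lies on chromosome 16 from 3014712 to 3020071 (GRCh38, minus strand, ENSG00000184697). Its level was 25.2, 26.9 and 27.8 TMM-scaled FPKM in the 3 sh-control libraries and 125, 125 and 119.8 in the 3 sh-circFTO libraries. All 3 sh-circFTO libraries were high and the groups did not overlap. It rose from 26.6 ± 1.31 to 123 ± 2.92 (SD, n = 3 each), a log2 fold change of 2.21 (SE 0.0508; Benjamini-Hochberg adjusted p = 1.18e-24 in the edgeR quasi-likelihood fit), or 4.63-fold. Among the 12865 tested genes, 208 rose more.

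CLDN4, a claudin best known as the receptor of a Clostridium enterotoxin and as a barrier to sodium, lies on chromosome 7 from 73799542 to 73832690. It stood at 11.4, 10.5 and 12.0 TMM-scaled FPKM in sh-control and at 21.2, 21.2 and 19.8 in sh-circFTO. It rose from 11.3 ± 0.746 to 20.8 ± 0.813 (log2 fold change 0.88, SE 0.0588, adjusted p = 7.64e-14 by edgeR). CLDN2, which forms pores for sodium and water between cells, lies on chromosome X from 106900164 to 106930861. Its level was low, at 1.96, 1.18 and 0.996 TMM-scaled FPKM in sh-control and 2.23, 2.31 and 2.33 in sh-circFTO. The sh-control libraries spread over nearly 2-fold, with replicate 1 the highest, and all of them lay below the sh-circFTO libraries. The log2 fold change of CLDN2 was 0.73 (SE 0.192, adjusted p = 0.00128 by edgeR); it was 1.07 without sh-control replicate 1 and 0.55 without sh-control replicate 3, and it was called in both cases.

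CLDN1 encodes the claudin of the skin's water barrier and a co-receptor through which hepatitis C virus enters hepatocytes. It lies on chromosome 3 from 190305707 to 190322446. It moved the other way from CLDN6 and CLDN4. Its level was 34.1, 34.3 and 34.0 TMM-scaled FPKM in sh-control and 24.5, 22.2 and 22.8 in sh-circFTO. It fell from 34.1 ± 0.167 to 23.2 ± 1.22 (log2 fold change -0.56, SE 0.0505, adjusted p = 5.26e-11 by edgeR). CLDN14, a claudin of the kidney and inner ear, was close to absent. It had 2, 0 and 2 counts in the sh-control libraries and 7, 4 and 3 in the sh-circFTO libraries, and was not tested. Its count ratio, corrected for depth, was 3.32 with an exact 95% interval of 1.04 to 13.8 that covers counting error only; when all genes with a count were tested its adjusted p was 0.280 by edgeR.

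The claudin genes start from promoters of different make-up. The windows printed run from 250 bases before to 50 after the RefSeq start (build GRCh38.p14), for the member that rose most, a second that rose, and the most abundant claudin of sh-control, which fell. Capitals mark GGGCGG, the GC box read by SP1, and CACCTG, the E-box read by SNAI and ZEB repressors, on either strand. The RefSeq starts of CLDN6 and CLDN4 lie inside the longer spans of the deposited annotation.
CLDN6, chr16:3018134-3018433, minus strand: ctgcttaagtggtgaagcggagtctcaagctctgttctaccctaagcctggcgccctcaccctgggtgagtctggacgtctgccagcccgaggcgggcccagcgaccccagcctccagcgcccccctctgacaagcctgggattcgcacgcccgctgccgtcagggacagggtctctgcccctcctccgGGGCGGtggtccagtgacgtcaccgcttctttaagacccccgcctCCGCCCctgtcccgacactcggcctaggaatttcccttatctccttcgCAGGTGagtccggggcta
CLDN4, chr7:73830746-73831045, plus strand: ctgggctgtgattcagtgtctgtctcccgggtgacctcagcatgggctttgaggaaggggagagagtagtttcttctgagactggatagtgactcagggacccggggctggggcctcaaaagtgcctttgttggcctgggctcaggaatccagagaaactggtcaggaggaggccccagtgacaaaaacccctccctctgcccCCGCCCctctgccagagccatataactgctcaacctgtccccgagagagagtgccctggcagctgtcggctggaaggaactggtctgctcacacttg
CLDN1, chr3:190322397-190322696, minus strand: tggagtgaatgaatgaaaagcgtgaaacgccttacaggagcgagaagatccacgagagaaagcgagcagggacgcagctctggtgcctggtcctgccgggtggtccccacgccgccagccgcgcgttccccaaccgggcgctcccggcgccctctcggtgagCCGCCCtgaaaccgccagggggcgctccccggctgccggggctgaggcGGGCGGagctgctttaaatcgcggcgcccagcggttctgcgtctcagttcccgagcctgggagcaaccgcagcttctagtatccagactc

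The CLDN6 window held 2 GC boxes before the start and 1 E-box that begins 32 bases after it. The CLDN4 window held 1 GC box and no E-box of these letters, and the CLDN1 window 2 GC boxes and no E-box. Searched on both strands, TATAAA and CCAAT were in none of these 3 windows, and TGANTCA, the AP-1 site, was in the CLDN4 window at 2 positions. Of 35116 promoter windows of the same length, 45.0% held the GC box, 20.6% the E-box, 11.5% TATAAA, 34.6% CCAAT and 7.71% TGANTCA. RefSeq windows were matched for 8 of the 10 junction genes, 16 windows in all, as some genes have several starts. Of the 16 windows, 8 held the GC box and 6 the E-box. CDH1 and EPCAM were the genes without a window. A match in these windows is a description of letters only.

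The table listed 24 claudin genes, of which 5 had 0 counts in every library, 10 had between 1 and 60 counts over all 6, and 9 were tested. Besides the 4 tested claudins described above, the 5 others were CLDN11, CLDN12, CLDN15, CLDN19 and CLDN20. CLDN12, a widely made claudin, fell by 0.39 on the log2 scale (SE 0.0566, adjusted p = 6.04e-07 by edgeR). CLDN11, known from myelin and the testis, had a log2 fold change of -0.74, CLDN15, known from the gut, -0.60, and CLDN19, known from the kidney, -0.51. Their adjusted p-values were 8.18e-05, 0.000150 and 0.000992 in the same fit. CLDN20 was at 0.68 (SE 0.340, adjusted p = 0.0753) and was not called. With library size as the only scaling 1 of the 5 was called higher, and CLDN12 was at -0.24. CLDN7, the claudin that binds EPCAM in other epithelia, was counted 1 time in sh-control and 2 times in sh-circFTO.

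**Figure D2:**
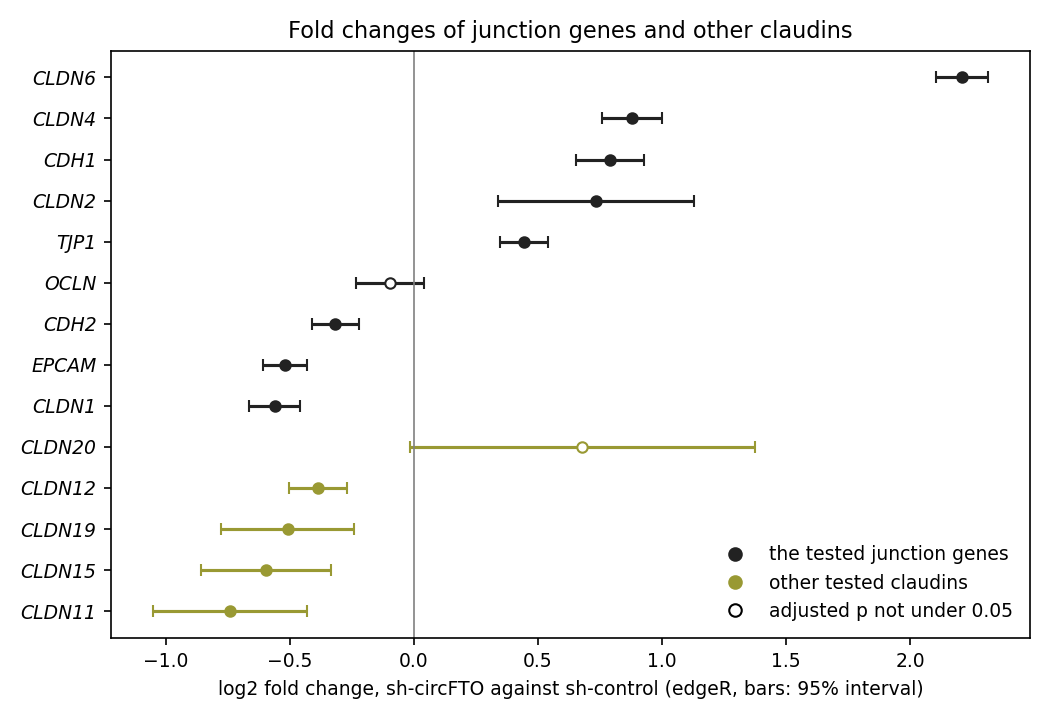
Log2 fold changes of sh-circFTO against sh-control for the 9 tested junction genes (black) and the 5 other tested claudins (olive), with 95% intervals from edgeR; open points were not called. CLDN6 stands apart at 2.21, and among the other claudins the 4 called genes lie between -0.74 and -0.39.

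The make-up of claudin RNA differed between the groups. Shares were taken within each library from deposited FPKM over the 24 claudin genes, and so do not depend on the scaling between libraries. Their sizes do rest on the deposited exonic lengths, 1739 bases for CLDN6, 3628 for CLDN1 and 4699 for CLDN4. Without length, CLDN6 had a mean of 46.3 TMM-scaled CPM in sh-control and CLDN1 124. In sh-circFTO these were 214 and 84.0. CLDN6 made up 25.4%, 27.2% and 27.0% of summed claudin FPKM in the sh-control libraries and 64.4%, 65.4% and 64.5% in the sh-circFTO libraries. Its share was thus 26.5% ± 0.976 against 64.7% ± 0.540 (SD, n = 3 each). CLDN1 had the largest share in sh-control, 34.1% ± 0.867, and 12.2% ± 0.531 in sh-circFTO. CLDN12 had 13.4% ± 0.547 and 5.40% ± 0.280.

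CLDN4 had a share of 11.3% ± 0.550 and 10.9% ± 0.227, and its libraries overlapped between groups. CLDN2 had 1.38% ± 0.537 and 1.21% ± 0.0523, also with overlap. The two-sided exact permutation p was 0.1 for CLDN6, CLDN1 and CLDN12, 0.4 for CLDN4 and 0.9 for CLDN2, and no p under 0.1 can arise from 3 libraries against 3. The summed claudin level was 100.2 ± 2.22 TMM-scaled FPKM in sh-control and 190.2 ± 4.07 in sh-circFTO (two-sided exact permutation p = 0.1).

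**Figure D3:**
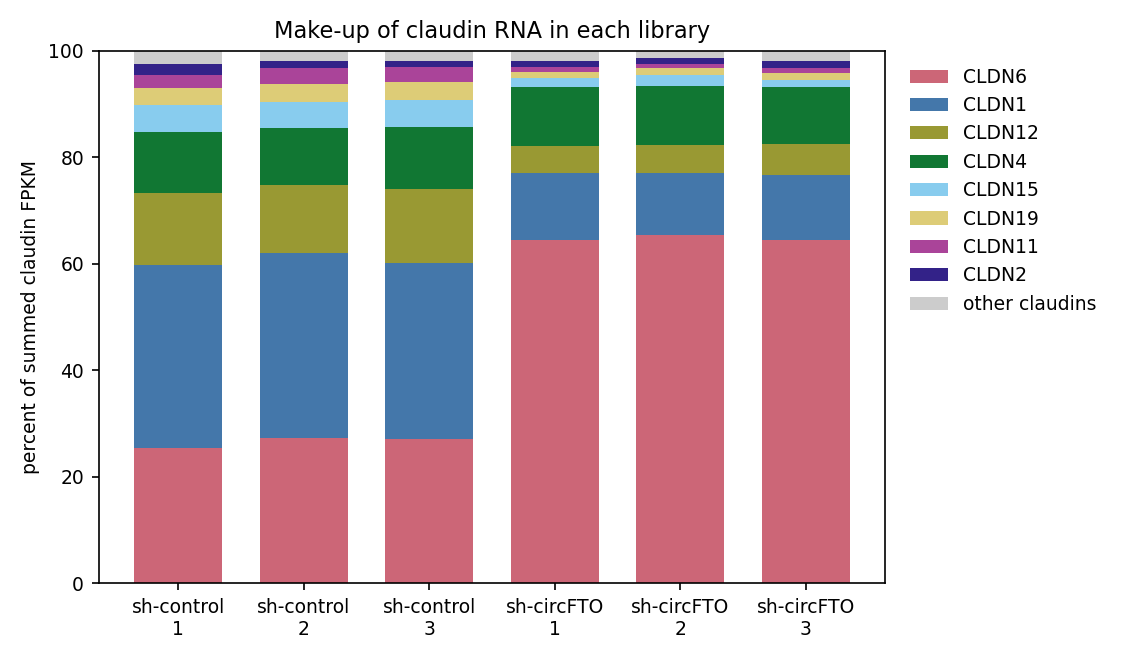
Percent of summed claudin FPKM taken by each claudin in each of the 6 libraries; each bar is 1 library and adds to 100%. CLDN6 takes 25.4% to 27.2% of the bar in sh-control and 64.4% to 65.4% in sh-circFTO, while CLDN1 and CLDN12 shrink.

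Occludin and ZO-1 differed from each other. OCLN encodes occludin, a tight junction membrane protein with 4 membrane passes that hepatitis C virus also uses for entry. It lies on chromosome 5 from 69492292 to 69558104. It stood at 4.17, 4.5 and 4.09 TMM-scaled FPKM in sh-control and 3.84, 4.02 and 4.08 in sh-circFTO. The groups parted by a hair on this scale and overlapped in deposited FPKM, which ran from 3.87 to 4.28 and from 4.03 to 4.30. The log2 fold change of OCLN was -0.10 with a 95% interval of -0.23 to 0.04 (adjusted p = 0.201 by edgeR), and its sign turned to 0.05 with library size as the only scaling (adjusted p = 0.520). OCLNP1, a partial copy of OCLN on the same chromosome whose reads could be shared with it, was counted 14 and 37 times in the 2 groups, against 2103 and 2075 for OCLN.

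TJP1 encodes ZO-1, which binds claudins, occludin and actin, and lies on chromosome 15 from 29699367 to 29968915. Its level was 8.41, 8.48 and 8.40 TMM-scaled FPKM in sh-control and 11.7, 11.7 and 11.05 in sh-circFTO, with no overlap. It rose from 8.43 ± 0.0444 to 11.5 ± 0.357 (log2 fold change 0.44, SE 0.0477, adjusted p = 2.12e-09 by edgeR). Its relative TJP3, which encodes ZO-3 and was named as a relative and not for its size of change, fell by 1.68 on the log2 scale, from 219 to 72 counts over the 3 libraries of each group; it reached the filter in sh-control alone.

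The 2 classical cadherins moved in opposite directions. CDH1 encodes E-cadherin, the calcium-dependent adhesion protein of epithelial adherens junctions, and lies on chromosome 16 from 68737292 to 68835537. It stood at 5.95, 6.83 and 6.48 TMM-scaled FPKM in sh-control and 11.7, 10.5 and 11.2 in sh-circFTO. Every sh-circFTO library was above every sh-control library. CDH1 rose from 6.42 ± 0.442 to 11.1 ± 0.621 (log2 fold change 0.79, SE 0.0669, adjusted p = 1.40e-11 by edgeR).

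CDH2 encodes N-cadherin, the cadherin of neural and mesenchymal cells that hepatocytes also make, and lies on chromosome 18 from 27932879 to 28177946. Its level was 22.4, 22.3 and 22.1 TMM-scaled FPKM in sh-control and 18.8, 18.2 and 16.7 in sh-circFTO. The groups did not overlap, and the sh-circFTO libraries were the lower ones. CDH2 fell from 22.3 ± 0.131 to 17.9 ± 1.11 (log2 fold change -0.32, SE 0.0457, adjusted p = 4.91e-07 by edgeR). When scaled by library size alone the fall was smaller, at -0.17 (adjusted p = 0.00155).

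Within each library CDH2 FPKM was 3.76, 3.27 and 3.42 times that of CDH1 in sh-control, and 1.61, 1.74 and 1.49 times in sh-circFTO. The log2 ratio was 1.80 ± 0.102 against 0.69 ± 0.112, a difference of -1.11 (two-sided exact permutation p = 0.1, the smallest possible here). CDH2 RNA thus remained above CDH1 RNA per length in all 6 libraries. The size of the ratio within a library rests on the deposited exonic lengths, 8583 bases for CDH2 and 6076 for CDH1. GENCODE gives 4950 and 6177 bases, which would make every ratio larger if the counts stayed the same. Reads were not counted again on the GENCODE exons. The difference in log2 ratio between the groups does not depend on these lengths.

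**Figure D4:**
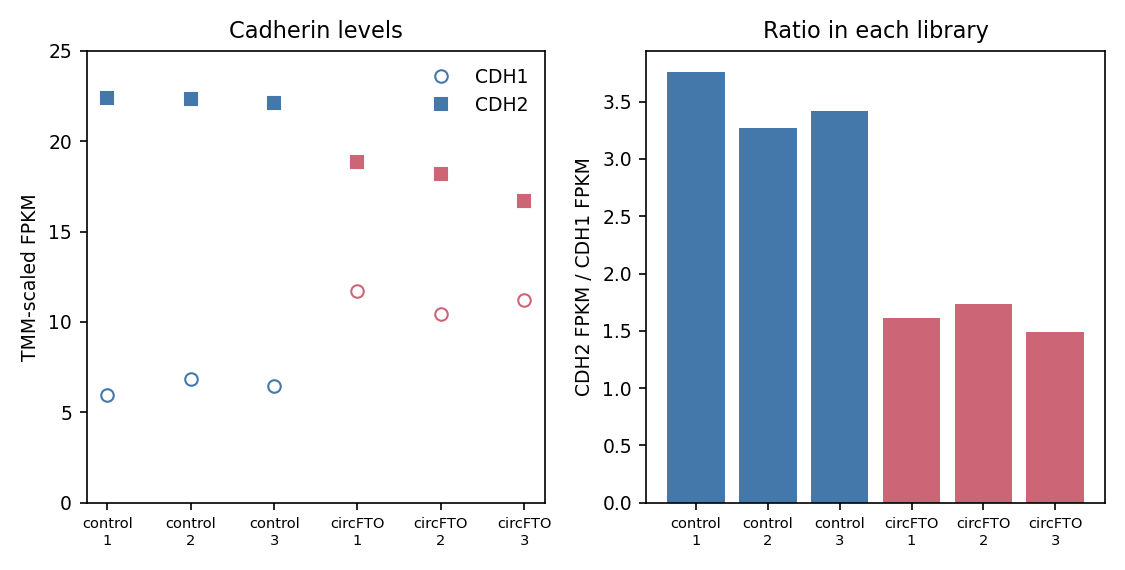
Left, level of CDH1 (open circles) and CDH2 (filled squares) in each library in TMM-scaled FPKM, blue for sh-control and red for sh-circFTO; right, CDH2 FPKM divided by CDH1 FPKM in the same libraries. The ratio lies between 3.27 and 3.76 in sh-control and between 1.49 and 1.74 in sh-circFTO.

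EPCAM encodes a homophilic adhesion protein of epithelia and of liver progenitor cells. It lies on chromosome 2 from 47345158 to 47387601. It was the most abundant of the 10 genes in sh-control, at 82.9, 78.7 and 83.5 TMM-scaled FPKM, and stood at 55.9, 56.6 and 58.3 in sh-circFTO. All 3 sh-circFTO libraries were low. EPCAM fell from 81.7 ± 2.64 to 56.9 ± 1.23 (log2 fold change -0.52, SE 0.0435, adjusted p = 1.08e-11 by edgeR).

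The order of the levels changed at the top. In sh-control it ran EPCAM, CLDN1, CLDN6, CDH2, CLDN4, TJP1, CDH1, OCLN, CLDN2 and CLDN14, and no neighbours in that order overlapped. In sh-circFTO it ran CLDN6, EPCAM, CLDN1, CLDN4, CDH2, TJP1, CDH1, OCLN, CLDN2 and CLDN14, and TJP1 (11.05 to 11.7) and CDH1 (10.5 to 11.7) overlapped. These levels use the exonic length of all annotated transcripts of a gene, so the order between genes depends on that annotation. The deposited lengths were 4699 bases for CLDN4 and 1739 for CLDN6, and those in GENCODE 4702 and 1739. For CDH2 the deposited length was 8583 bases against 4950 in GENCODE, and for OCLN 11259 against 6761. At the same counts the shorter lengths would raise the levels of CDH2 and OCLN, so their places in both orders rest on the deposited lengths. The order under GENCODE lengths was not tested. In bulk RNA a change in the share of cells that make a gene and a change in RNA per cell cannot be told apart.

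For each of the 10 genes the nearest tested gene on either side was taken, at gaps of 0 to 2880894 bases, as untested genes were passed over. Of these 20 neighbours 6 were called higher, 7 lower and 7 not called, beside 34.9% higher and 34.8% lower over all tested genes. TNFRSF12A, a receptor of the cytokine TWEAK, overlaps CLDN6 on the other strand and shares 40 exonic bases with it, 2.30% of the CLDN6 exons. Its counts were 2211 in sh-control and 4051 in sh-circFTO, a log2 fold change of 0.79 (adjusted p = 1.02e-12 by edgeR), while CLDN6 had 2029 and 9901 counts. CLDN9, which lies close to the far end of CLDN6, had 13 and 43 counts. MORC4 spans CLDN2 on the opposite strand without a shared exonic base, and had a log2 fold change of 1.18. RIPPLY1 shares 341 exonic bases with CLDN2 (10.0% of the CLDN2 exons), on the opposite strand, and had 19 and 45 counts, against 206 and 362 for CLDN2. Whether the counting used strand is not given in the sources used here, so reads on shared exonic bases cannot be assigned to one gene.

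EPCAM-DT, a non-coding RNA that starts 84 bases from EPCAM and runs the other way, had 156 and 279 counts and a log2 fold change of 0.76 (SE 0.186, adjusted p = 0.000633 by edgeR), opposite in sign to EPCAM. The deposited FPKM of EPCAM-DT in sh-control was 0.93, 0.86 and 1.04, so it passed the filter through sh-circFTO. MARVELD2, which encodes tricellulin and lies next to OCLN, fell by 0.36 on the log2 scale. Of the remaining neighbours, ABHD11 (60690 bases from CLDN4), ZFP90 (161220 from CDH1) and DSC2 (2880894 from CDH2) were higher by 0.69, 0.65 and 1.65. LPP (1415036 bases from CLDN1), CHAF1B and HLCS (41606 and 172057 from CLDN14) and CHST9 (747571 from CDH2) were lower, at -0.66, -0.74, -0.26 and -0.44. The pseudogene HMGN2P5 inside TJP1, whose reads could come from HMGN2, was lower at -1.43. HLCS was not called with library size only, at -0.11. The gene ENSG00000272079 by CLDN6, which has no symbol, was lower at -1.15. Its deposited FPKM in sh-circFTO was 0.88, 0.75 and 1.44, so it passed the filter through sh-control. IL1RAP, RBM41, METTL27, GTF2H2C, FTLP14, MIR559 and the unnamed ENSG00000270055 were not called; IL1RAP was called higher with library size only, at 0.30.

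Other genes of the junctions were taken from lists written with earlier results of these data known, and are given as counts without a test of the list. Of 143 such genes 74 were tested, 32 of them higher, 23 lower and 19 not called. Over all tested genes 34.9% were called higher and 34.8% lower, and every count of a list or term given here is to be read beside these shares. The median log2 fold change of the 74 was 0.08 against 0.00 over all tested genes. When libraries were scaled by size alone, the median of all tested genes moved by 0.145, and the junction lists had 44 higher and 19 lower. In the deposited annotation the term bicellular tight junction held 88 tested genes, of which 41 were higher and 30 lower, and adherens junction held 45, of which 22 were higher and 16 lower.

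Among 6 tested membrane proteins of tight junctions 3 rose and 3 fell; 1 of the 6 reached the filter in one group alone. F11R, the junctional adhesion molecule JAM-A, rose from 11.7 ± 0.852 to 19.9 ± 0.590 TMM-scaled FPKM (log2 fold change 0.77). LSR, which marks the corners where 3 cells meet and recruits tricellulin, fell by 0.47, and MARVELD2 by 0.36 as stated. The fold of MARVELD2 was -0.22 with library size only, and its call was lost in limma fits of log2(FPKM + 1), at adjusted p = 0.0586, and of log2(FPKM + 0.1), at adjusted p = 0.0597. ESAM, an adhesion molecule known from endothelial cells and platelets, rose from 7.63 ± 0.602 to 46.03 ± 0.408, a log2 fold change of 2.59 (SE 0.0625, adjusted p = 3.23e-24 by edgeR). ESAM is also 1 of 10 endothelial markers, whose summed level was 32.6 to 38.7 TMM-scaled CPM in sh-control and 198 to 199.7 in sh-circFTO. Of these 10, 3 were tested and all 3 rose: ESAM, TIE1 and PECAM1, with TIE1 reaching the filter in sh-circFTO alone. The defining markers KDR, ERG and EMCN had 0 counts in every library, CDH5 had 4 and 2 counts in the 2 groups, and CLDN5 had 12 and 3. The part of such cells in the ESAM result was not tested.

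The other marker lists also differed between the groups, except that of fibroblasts. Blood markers summed to 957 to 1060 TMM-scaled CPM in sh-control and 210.2 to 213 in sh-circFTO. LYZ, which encodes lysozyme, made up most of that sum, with 44305 and 9166 counts, while PTPRC, CD163 and ITGAM had 0 counts in every library. Of the 3 tested blood markers 2 rose and LYZ fell. Bile duct markers, EPCAM among them, summed to 1598 to 1689 and to 2051 to 2061 TMM-scaled CPM. Of the 7 tested, 2 rose and 4 fell, with KRT19 at 2.18 and SPP1 at -3.93 on the log2 scale. Hepatocyte markers summed to 26300.3 to 26515 and to 16882 to 17021, and fibroblast markers to 75.8 to 84.5 and to 73.9 to 80.5 TMM-scaled CPM, where the 1 tested gene, ACTA2, was not called. The part of these cell types in the results on the junction genes was not tested.

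Scaffold and polarity genes went both ways, with 8 of 26 tested higher and 7 lower (14 higher with library size only). LLGL1, a polarity protein of the basolateral side, rose by 0.89 on the log2 scale. AMOTL2, an angiomotin, rose by 1.02, and PRKCZ, an atypical protein kinase C of the PAR complex, by 0.70. PARD3B, a relative of the polarity scaffold PARD3, fell by 1.59 (SE 0.110, adjusted p = 1.73e-13 by edgeR). PARD3B and TJP3, the 2 of the 26 that reached the filter in one group alone, did so in sh-control.

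Of 26 tested plaque and nectin genes of adherens junctions 13 rose and 7 fell. JUP, which encodes plakoglobin, the catenin shared with desmosomes, rose from 18.4 ± 1.02 to 51.0 ± 2.33 TMM-scaled FPKM (log2 fold change 1.47, adjusted p = 4.23e-21 by edgeR). NECTIN1, an immunoglobulin-type adhesion receptor, rose by 1.64 and IQGAP1, a scaffold of actin and small GTPases, by 1.35. RAC1, a small GTPase of the actin cytoskeleton, fell by 0.97. Among the catenins that bind classical cadherins, CTNNA1 was at 0.02 (adjusted p = 0.699) and not called, CTNNB1 at -0.09 (adjusted p = 0.0469) and CTNND1 at 0.30 (adjusted p = 0.000220). In deposited FPKM, which is scaled by library size alone, the direction of CTNNB1 turned: its libraries ran from 26.5 to 28.6 in sh-control and from 28.63 to 28.9 in sh-circFTO. CTNNA1 also lay higher in sh-circFTO on that scale, at 44.5 to 45.7 against 38.7 to 41.1. ARVCF, a catenin of the p120 family, rose by 0.85 (adjusted p = 6.04e-11 by edgeR), and its relative PKP4 fell by 0.84 (adjusted p = 7.55e-16 by edgeR). These 5 genes were picked after their values were seen.

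Of 20 other cadherins CDH24 alone was tested, and it rose from 0.834 ± 0.194 to 4.68 ± 0.420 TMM-scaled FPKM (log2 fold change 2.48, adjusted p = 2.22e-14 by edgeR). In sh-control only 1 library had a CDH24 deposited FPKM of 1 or more, so CDH24 passed the filter through sh-circFTO. CDH3, which encodes P-cadherin and lies beside CDH1, had 0 counts in every library. Among the connexins, GJB1, the main gap junction protein of hepatocytes, fell by 0.86. Of 8 tested genes that act on or with EPCAM, 6 rose and 1 fell (0 lower with library size only). Among them were the sheddase ADAM17 (0.82), the gamma-secretase subunits PSENEN (1.14) and NCSTN (0.24, or 0.38 with library size only), and the tetraspanin CD9 (0.78).

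Transcription factors known to repress CDH1 were mostly scarce. Of 12 repressors 3 were tested: TCF3 rose by 0.26 (0.41 with library size only), while SNAI1 was at 0.23 (adjusted p = 0.324) and ZEB1 at 0.06 (adjusted p = 0.567), both not called. SNAI2 had 0 and 2 counts in the 2 groups, ZEB2 12 and 11, and TWIST1 had 0 in every library. Of 10 tested factors that favour epithelial or liver genes 6 fell and 2 rose (3 lower with library size only). HNF4A, a nuclear receptor of hepatocytes, fell by 1.17 and FOXA2 by 0.40 on the log2 scale (FOXA2 at -0.25 with library size only). KLF4 rose by 2.41, from 54 to 303 counts, and reached the filter in sh-circFTO alone. GRHL2, a factor of epithelial junction genes, had 0 counts in every library.

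**Figure D5:**
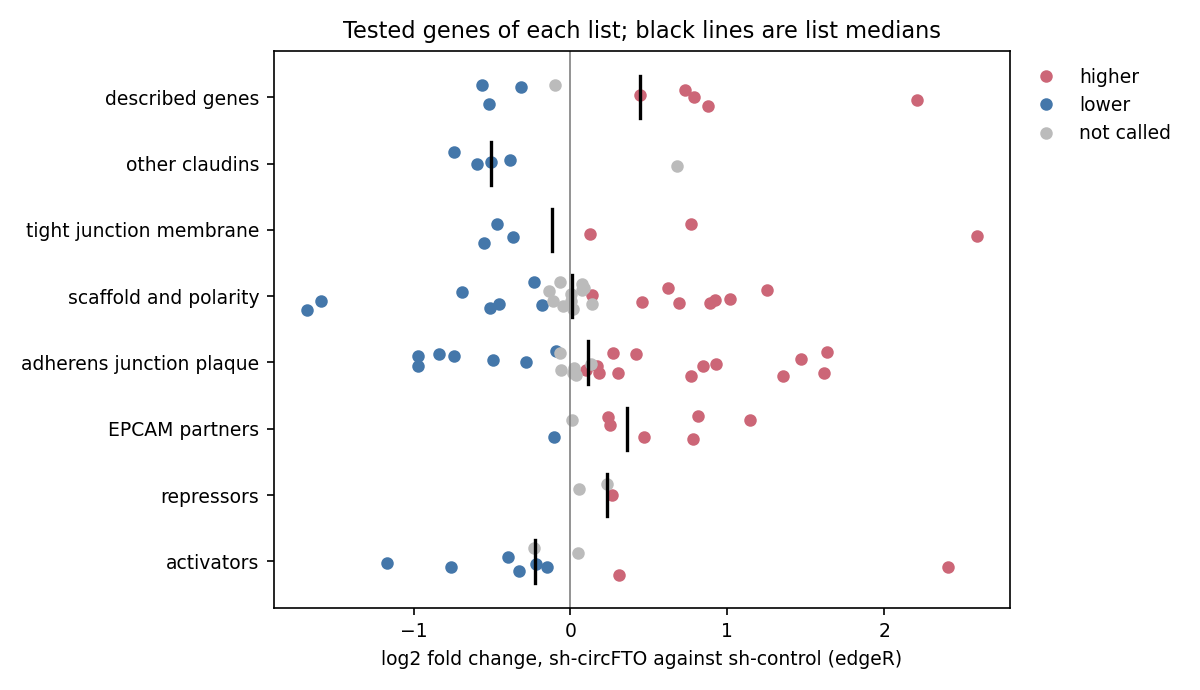
Log2 fold changes of every tested gene in 8 lists; each point is 1 gene, red if called higher, blue if called lower and grey if not called, and black lines are list medians. Calls went in both directions in 6 of the 8 lists; the 4 calls among the other claudins were lower and the 1 call among the repressors was higher.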

How the data were processed

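RNA-seq libraries of HepG2 cells were compared, 3 sh-control and 3 sh-circFTO, grouped by their titles. Per the labels' protocols, total RNA was taken with an RNeasy column kit, and a SMARTER mRNA-Seq kit gave the libraries. The table holds raw counts per Ensembl gene that the authors deposited, and deposited FPKM values that they computed from those counts and the exonic gene length (largest difference from that formula 0.00500 over 363630 values). For the aligner, counter and strand setting, nothing is given in the sources used here. Builds named in the submitters' processing notes are GRCm38, mm10 and hg18, yet of 58337 genes shared with GENCODE 29 on GRCh38, 56727 lay within 5000 bases at both ends on the same chromosome, so coordinates are given on GRCh38.

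Members and gene lists were chosen with earlier results of these data known. The 12865 genes that reached an FPKM of 1 in 3 or more libraries were fitted with edgeR 4.0.16 in R 4.3.3 (TMM, quasi-likelihood test, no covariates), with Benjamini-Hochberg adjustment over all of them at 0.05. Standard errors come from the fold change and its F statistic. Lists matched 143 of 143 junction genes, 1 of them by its current symbol. Named by rule were the 10 genes, up to 4 called genes of each list by adjusted p, and the nearest tested neighbours. Other genes were named outside this rule, among them TJP3, CTNNA1, CTNNB1, CTNND1, ARVCF, PKP4, SNAI1, ZEB1, marker genes and untested genes. Depth ran from 13361333 to 16178079 counts, and counting intervals cover counting error only. The fit was tested on simulated data. No library was a copy of another: chi-square per degree of freedom within groups was 2.06 to 4.66. Alternatives were other scalings and filters, DESeq2 1.42.0, limma 3.58.1 on log2(FPKM + 1) and log2(FPKM + 0.1), a replicate block and each library left out. Promoter sequences are RefSeq's, build GRCh38.p14. A few genes that the naming rule or the lists hold are not reported here.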

Additional observations from a re-analysis of the deposited data

How the results depend on the processing

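The calls on the junction genes (members called: 8, of them 5 higher and 3 lower) held in all 15 alternatives. With the replicate block 8999 genes were called, against 8969, and no call named here changed; same-numbered libraries correlated at -0.0103, -0.00907 and 0.0465 in their deviations, so the numbers were not taken to pair them. With library size only, genes called higher were 5700 and genes called lower 3471, against 4490 and 4479. Under that scaling the OCLN log2 fold change was 0.0493 and the GTF2H2C log2 fold change 0.117; in limma they were 0.0475 and 0.116 with 0.1 added to FPKM, and 0.0390 and 0.0916 with 1 added. With each library left out, genes that were not called changed sign: the METTL27 log2 fold change ran from -0.0561 to 0.305, the GTF2H2C one from -0.0851 to 0.0158, the FTLP14 log2 fold change from -0.232 to 0.625 and the MIR559 log2 fold change from -0.470 to 1.16. The group difference in CLDN2 percent of summed claudin level ran from -0.382 to 0.128 with libraries left out, and was positive without sh-control replicate 1. That in CLDN14 percent of summed claudin level was -0.0249 with 0.1 added to each FPKM. The cause of these reversals was not tested. The HLCS log2 fold change lost its call with library size only (adjusted p = 0.222), in both limma fits and without sh-circFTO replicate 2 (adjusted p = 0.0603). CLDN14, at a deposited FPKM under 1 in every library, was left untested by the filter; its 4 and 14 counts limit the precision of its ratio.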
